A study of Arabidopsis thaliana with 4 samples.

Results

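The genes described here are 8 Arabidopsis loci of the chitinase and lipid transfer protein families, grouped as secreted defence proteins. Whether each of them is secreted or serves in defence was not tested here. The 5 GH19 chitinase genes lie together on chromosome 2 (AT2G43570, also named CHI, AT2G43580, AT2G43590, AT2G43610 and AT2G43620), and 3 lipid transfer protein genes lie together on chromosome 5 (AT5G55410, AT5G55450 and AT5G55460). Of these 8 loci 6 had a probe set annotated to them alone, out of 13286 loci that had one. AT5G55410 and AT5G55460 had none in the annotation used and have no value here, so AT5G55450 is the lipid transfer protein gene that could be read. The loci were chosen by family and place and on the signals of these same arrays, add3 mutant against wild type, in which AT2G43620 and AT5G55450 had already been seen to differ. Their values in that comparison are therefore a description and are given without a test.

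Chitinases cut chitin, the polymer of fungal cell walls and insect cuticles, which plants do not make. The plant enzymes of the GH19 family are secreted or stored in the vacuole, and the fragments they release are sensed by receptors at the cell surface. Lipid transfer proteins are small secreted proteins whose cysteines form disulfide bridges around a cavity that binds fatty acids and other lipids. Some are antimicrobial, some help to build the cuticle, and some carry signals of induced resistance. Genes of both kinds are often raised by pathogens, by wounding or by hormones, and others serve growth without infection.

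RNA came from above-ground seedling parts (hypocotyl, cotyledons, meristem and young true leaves) at stage 1.02 and was hybridised to Affymetrix ATH1 arrays, 1 array per sample. The mutant group, add3 (ARRESTED DEVELOPMENT 3), had 2 samples of an EMS mutant made in Col-3 gl1, a line whose gl1 allele leaves the plants without leaf hairs. The wild-type group had 2 samples of Col-0. Effects of the add3 mutation and of the parental line cannot be told apart. Both groups grew under continuous light (24 h per day) at 29 °C after 4 days at 4 °C on the same soil mix, and no pathogen treatment is labelled. The labels do not say whether the replicates were separate plantings, so spreads and p-values cover these samples, whose differences may be technical.

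The deposited values are MAS5 signals on a linear scale, 1 per probe set and array. The level that bacterial control probe sets without target RNA reached on an array was taken as its background. For add3 it was 25.4 (replicate 1) and 12.3 (replicate 2), and for wild type 20.5 (replicate 1) and 13.0 (replicate 2). Median signals were 48.4 and 48.2 in add3 and 52.1 and 51.4 in wild type. The 5S ribosomal RNA control read 39.5 and 38.0 in add3 and 182 and 78.0 in wild type. The 3' to 5' signal ratio of actin controls was 5.47 and 7.18 in add3 and 5.04 and 7.23 in wild type for one set, and 3.10 and 3.17 in add3 and 4.49 and 2.71 in wild type for the other. The part of these in the results was not tested. Of the root markers listed as a check for below-ground tissue, 4 of 7 had a probe set. PYK10, a beta-glucosidase gene of roots that young seedlings also express in hypocotyls and cotyledons, had signals of 2511 and 2571 in add3 and 2034 and 2032 in wild type, and did not pass the test (limma adjusted p = 0.0989). Its part in the results was not tested either. Of the other root markers, AT5G17820 and AT3G01190 were not above background on any array. AT2G16005 had signals of 18.4 and 20.8 in add3 and of 2.53 and 32.9 in wild type. It was above background on 1 array of each group. The summed signal of the 4 was 2531 and 2596 in add3 and 2043 and 2068 in wild type. None of the 12 listed green shoot markers had a probe set of its own, so the labelled tissue could not be checked with them. Of the 5 trichome markers 1 had a probe set, TRY, which was above background on 1 add3 array and on no wild-type array.

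The 5 chitinase neighbours did not move together. AT2G43620 was higher in add3, AT2G43590 was lower, AT2G43610 was lower by a small margin, CHI overlapped between the groups and AT2G43580 was at background on every array. The lipid transfer protein gene AT5G55450 was higher in add3 by about as much as AT2G43620. Both add3 signals lay above both wild-type signals for 2 of the 6 measured members and below them for another 2. Over all 22746 probe sets of the array the same held for 19.4% in the upward and 30.8% in the downward direction. No permutation of 2 against 2 arrays can give a two-sided p below 0.333. In bulk tissue, fewer cells of a type and less RNA per cell cannot be told apart. The signal plot by array shows all 6 measured genes.

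**Figure D1:**
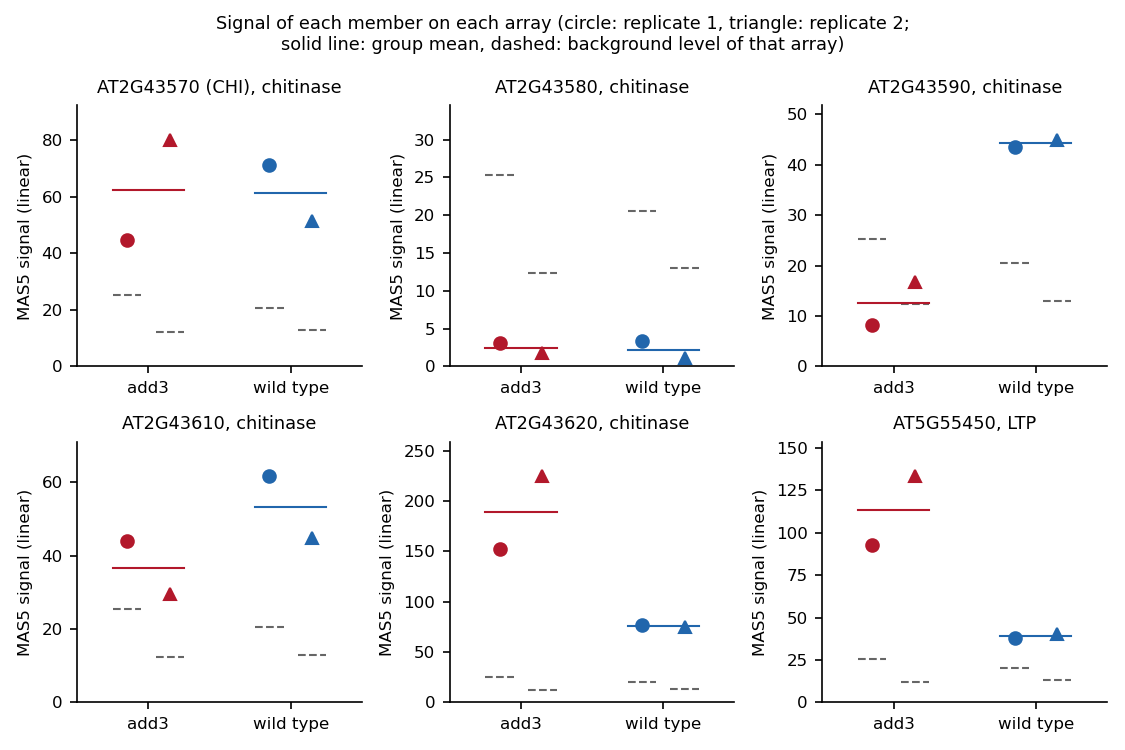
MAS5 signal (linear, vertical axis from 0) of the 6 measured members on each array, with add3 on the left and wild type on the right of each panel, circles for replicate 1, triangles for replicate 2, solid lines for group means and dashed lines for the background of each array (LTP, lipid transfer protein). AT2G43620 and AT5G55450 sit higher in both add3 samples, AT2G43590 lower in both, and AT2G43580 lies under the background of all 4 arrays.

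AT2G43620, the last chitinase gene of the row on chromosome 2, had signals of 152 and 225 on add3 arrays 1 and 2 and of 77.0 and 74.6 on wild-type arrays 1 and 2. Both add3 samples were above both wild-type samples, and the wild-type pair was close while the add3 pair was spread. The ratio of an add3 signal to a wild-type signal ran from 1.98 to 3.02 over the 4 pairs of arrays. Group means were 189 ± 51.6 in add3 and 75.8 ± 1.66 in wild type (SD, n = 2 each). On the log2(signal + 12.5) scale, which understates the change of dim genes, the difference of add3 minus wild type was 1.16 (SE 0.19). A difference at least this large upward was seen for 74 of 13648 probe sets that passed a filter on dim signals.

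AT5G55450, one of the lipid transfer protein genes on chromosome 5, had signals of 92.5 and 134 in add3 and of 38.0 and 40.05 in wild type. Again both add3 samples were above both wild-type samples, with the higher value on add3 replicate 2. The 4 pairwise ratios ran from 2.31 to 3.52. Group means were 113 ± 29.1 in add3 and 39.0 ± 1.48 in wild type (SD, n = 2 each). The log2 difference was 1.27 (SE 0.19), and 53 of the 13648 probe sets had one at least as large upward.

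AT2G43590, which lies after AT2G43580 in the same chitinase row, lay the other way. Its signals were 8.26 and 16.8 in add3 and 43.5 and 45.0 in wild type. Both wild-type samples were well above the background of their arrays, whereas of the add3 samples only replicate 2 was above it. The 4 ratios of add3 to wild type ran from 0.183 to 0.387, and the log2 difference was -1.20. Its SE, 0.25, comes from this gene's 4 signals alone, while those of the other members are limma's moderated values. The mean signal over the 4 arrays, 28.4, was under the filter of 33.2, so it was not among the 13648. On the log2(signal + 12.5) scale wild type over add3 was 2.30-fold. With the background level in place of the add3 signal that was not above it, this was 1.70-fold. The ratio of the group means of the signals as deposited, wild type over add3, was 3.53.

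AT2G43610, another GH19 chitinase gene, had signals of 43.9 and 29.5 in add3 and of 61.8 and 44.7 in wild type. The groups did not overlap, but add3 replicate 1 and wild-type replicate 2 were nearly equal, with a ratio of 0.982. Its log2 difference was -0.42 (SE 0.22). When each array was scaled to the same median, or quantile-normalized, its groups overlapped, leaving AT2G43590 as the only member (1 of 6) with both add3 signals below both wild-type signals. Of all probe sets 23.5% lay so with median scaling and 25.2% with quantile normalization.

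CHI had signals of 44.5 and 80.2 in add3 and of 71.2 and 51.3 in wild type. The 2 groups interleaved, and the log2 difference was -0.01 (SE 0.26). The spread was wide: without add3 replicate 1 the estimate was 0.34, and without add3 replicate 2 it was -0.36. These arrays thus allow no direction for CHI. That range is not a limit of detection, so a change beyond it is not excluded either.

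AT2G43580 had signals of 3.08 and 1.79 in add3 and of 3.32 and 1.10 in wild type. All 4 were below the background of their arrays, so no fold is given. The gene was not detectable in either group at the signal these arrays resolve. Whether it was transcribed at a lower level was not tested.

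The members placed among all probe sets show the same split. AT2G43620 and AT5G55450 lay in the upper edge of the cloud, AT2G43590 at the lower edge among dimmer probe sets, and CHI and AT2G43610 within it. Across all tested probe sets the median log2 difference was -0.05, and 44.1% of them were above 0.

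**Figure D2:**
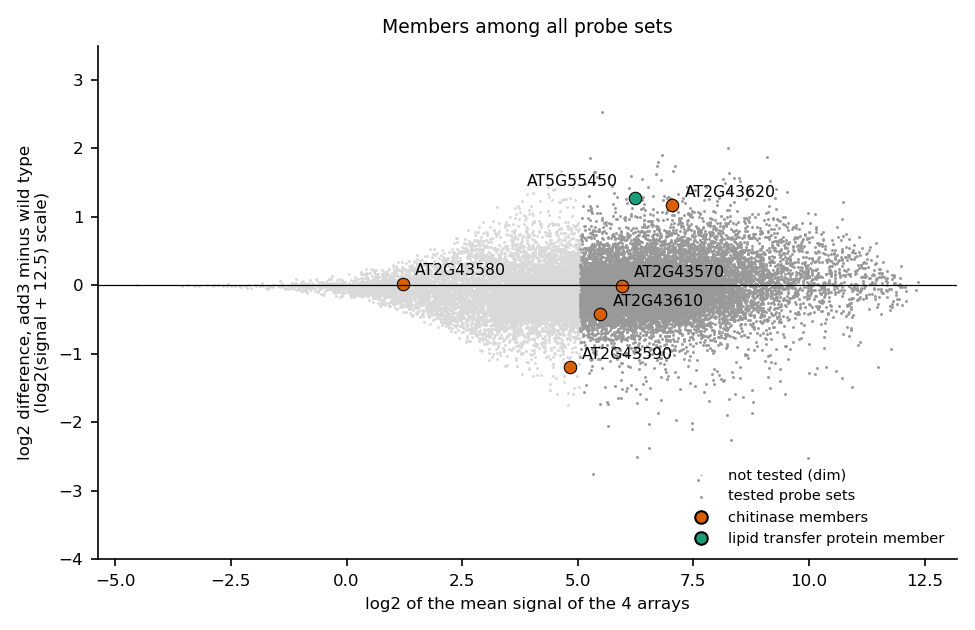
Log2 difference of add3 minus wild type (vertical axis, log2(signal + 12.5) scale) against the log2 of the mean signal over the 4 arrays (horizontal axis) for all probe sets, dark grey where tested and light grey where dimmer than the filter. The chitinase members (orange) spread from -1.20 to 1.16, and the lipid transfer protein member AT5G55450 (green) lies at 1.27.

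The add3 samples differed from each other at these genes by more than most probe sets did. Replicate 2 minus replicate 1 on the log2 scale was 0.70 for CHI, 0.53 for AT2G43620, 0.50 for AT2G43590 and 0.48 for AT5G55450, and it was -0.43 for AT2G43610. Among the 9092 probe sets with a mean signal between 28.4 and 132, the range of these 5 members, the median size of this gap was 0.16 and the 90th percentile was 0.45. Of the 5 members 4 exceeded that percentile. Among these, the gap of AT2G43590 starts from an add3 replicate 1 signal of 8.26, under that array's background of 25.4. Its wild-type signals also raise the mean by which it was matched, so its place against that percentile is not a usable measure. Between the wild-type samples, replicate 2 minus replicate 1 was -0.39 for CHI, -0.38 for AT2G43610, -0.04 for AT2G43620, 0.04 for AT2G43590 and 0.06 for AT5G55450. The median gap of those probe sets in wild type was 0.19. The sizes of the higher add3 levels of AT2G43620 and AT5G55450 therefore depend on the replicate. Without add3 replicate 2 the log2 differences were 0.90 and 1.03, and without add3 replicate 1 they were 1.43 and 1.50.

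Each measured member was read by 1 probe set, so no second probe set stands beside it. Probe sequences were not used here, and cross-hybridisation between the related chitinase genes of the row was not tested.

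The genes beside the members were read in the same fit. In the order of the TAIR10.1 annotation, the chitinase row holds 1 further GH19 gene, AT2G43600, whose signals of 2.04 and 2.72 in add3 and 4.70 and 3.53 in wild type were below background on all arrays. The lipid transfer protein row also holds AT5G55420, a transcribed pseudogene, with 20.7 and 19.7 in add3 and 4.83 and 17.0 in wild type. It was dimmer than the filter and above background on only 1 array of each group, so no direction is given. AT5G55430 and AT5G55440, also inside that row, had no probe set of their own. Of 24 loci inside the rows or within 5 places on either side of them, 15 had a probe set and 9 were tested. One was called, at an adjusted p under 0.05, and it fell. For comparison, 7.31% of all tested probe sets were called, 4.17% upward and 3.14% downward. The called neighbour was AT2G43530, a gene for a small cysteine-rich defensin-like protein. It is the furthest of the 5 loci before CHI and lies outside the chitinase row. It had signals of 266 and 351 in add3 and of 932 and 682 in wild type (log2 difference -1.35, SE 0.19, limma adjusted p = 0.0142). Genes next to AT2G43620 and CHI did not pass the test: AT2G43560, just before CHI, differed by 0.49 on the log2 scale (limma adjusted p = 0.0589), and AT2G43630, just after AT2G43620, one of 0.29 (limma adjusted p = 0.326). Both of these were picked after their values were seen.

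**Figure D3:**
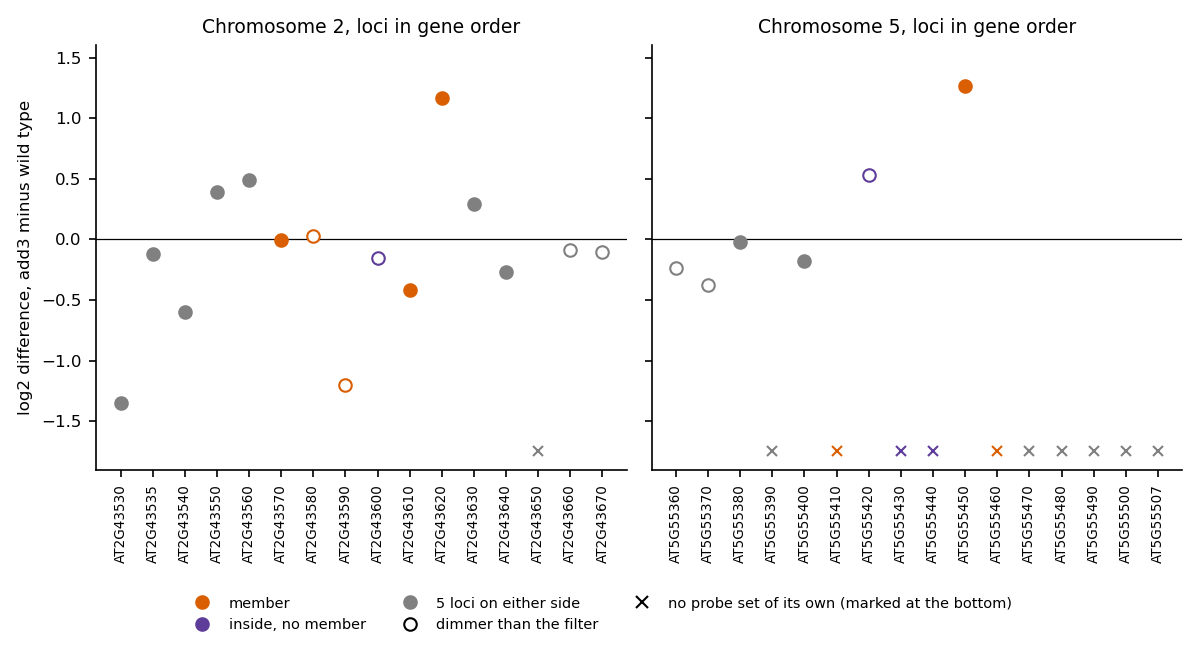
Log2 difference of add3 minus wild type (vertical axis) for loci in gene order along chromosome 2 (left) and chromosome 5 (right), members in orange, other loci inside the rows in purple, 5 loci on either side in grey, open circles dimmer than the filter and crosses without a probe set of their own. On chromosome 2, AT2G43620 at 1.16 stands next to AT2G43610 at -0.42 and AT2G43630 at 0.29, and the lowest point is AT2G43530 at -1.35.

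Other genes of the same families and of defence were listed from general knowledge in 9 lists. Of 159 listed loci 71 had a probe set of their own and 33 passed the filter. Among these 33, 3 rose and 2 fell in add3, which is 15.2% called beside the 7.31% of all tested probe sets. That share rests on 5 genes, of which AT1G02360 passed the filter only through its add3 signals. The lists were drawn up with earlier results of these data known, so the share is a description and was not tested. Their median log2 difference was 0.06, against -0.05 over all tested probe sets. The lists hold few tested genes, since many well-known defence genes have no probe set with 1 annotated gene here.

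Among other chitinases of the GH19 family, 1 of 3 tested genes rose and none fell (median log2 difference 0.38). It was AT1G02360, with signals of 54.9 and 63.0 in add3 and of 21.4 and 28.3 in wild type. Its groups were well apart, with means of 58.9 ± 5.68 in add3 and 24.9 ± 4.89 in wild type (SD, n = 2 each; log2 difference 0.94, SE 0.19, limma adjusted p = 0.0362). The size held at 0.80 to 1.07 when 1 array was left out. A fit without 1 array leaves a single sample in that group, whose spread is taken from the other, and the call was then lost without add3 replicate 1 (limma adjusted p = 0.0822), add3 replicate 2 (0.167) or wild-type replicate 1 (0.0816). Of the GH18 chitinases, which share the substrate but not the fold, 2 of 5 measured genes were tested and neither passed limma's test, at an adjusted p or at an unadjusted p under 0.05. These were AT4G19820 (log2 difference -0.34, adjusted p = 0.39) and ChiC (-0.22, adjusted p = 0.478), and their median was -0.28. Leaving out 1 array moved AT4G19820 to as low as -0.59 (without wild-type replicate 1), and ChiC between -0.39 (without wild-type replicate 1) and -0.06 (without wild-type replicate 2).

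Among other secreted lipid transfer proteins, 1 of 4 tested genes rose and none fell (median 0.07). AT5G48490, which encodes a close relative of DIR1, a lipid transfer protein of long-distance resistance signalling, had signals of 496 and 413 in add3 and of 137 and 199 in wild type. Both add3 samples were more than 2 times as bright as either wild-type sample (log2 difference 1.39, SE 0.19, limma adjusted p = 0.013). Limma gave 2 of the 4 tested genes an unadjusted p under 0.05, AT5G48490 and 1 that was lower in add3. Of this list 13 loci had a probe set, and 9 of those were dimmer than the filter. Of the hybrid proline-rich proteins, which carry the lipid transfer fold behind a proline-rich stretch, 1 of 7 rose and none fell (median -0.07). It was AT2G10940, with 2352 and 2074 in add3 and 1036 and 1217 in wild type (log2 difference 0.97, SE 0.13, limma adjusted p = 0.0125). Limma gave 4 of the 7 an unadjusted p under 0.05, some higher and some lower in add3. Of the lipid transfer proteins held at the membrane by a GPI anchor, none of 3 passed the adjusted threshold in limma, although 2 had an unadjusted p under 0.05. They were AT1G62790 (log2 difference -0.53, adjusted p = 0.0523) and AT2G44300 (0.48, adjusted p = 0.179), and the list median was -0.33. The estimate of AT2G44300 was 0.25 without add3 replicate 2 and 0.70 without add3 replicate 1.

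**Figure D4:**
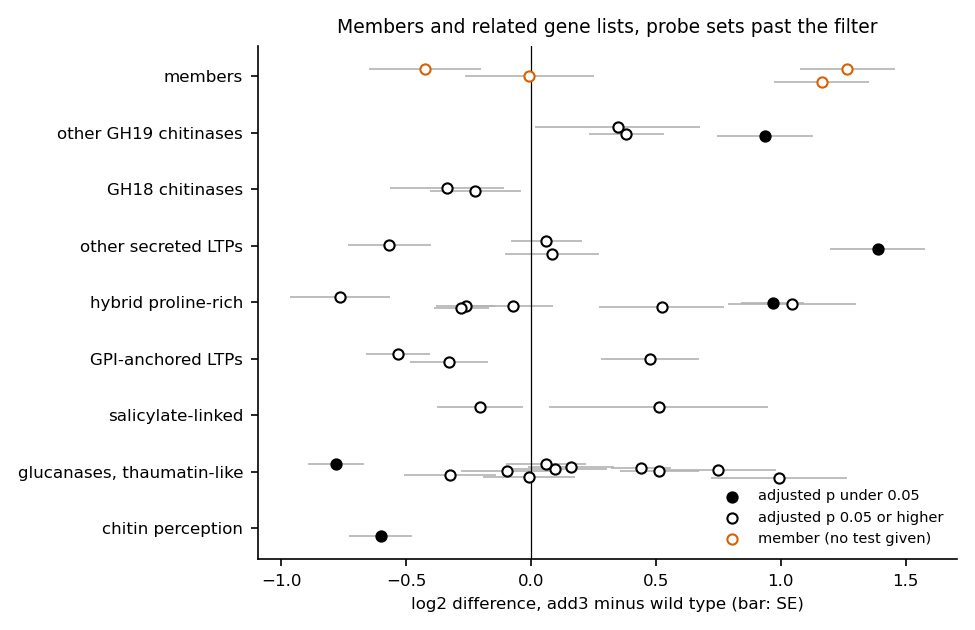
Log2 difference of add3 minus wild type (horizontal axis, bars are SE) for the tested genes of the lists named in the text, filled where the adjusted p was under 0.05, with the 4 members past the filter in orange and without a test (LTP, lipid transfer protein). In the chitinase and lipid transfer protein lists the filled points are AT1G02360 at 0.94, AT5G48490 at 1.39 and AT2G10940 at 0.97, all to the right of 0. The open points of these lists lie on both sides of 0.

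Of the beta-1,3-glucanase and thaumatin-like genes, other families of pathogenesis-related proteins, 1 of 11 fell and none rose (median 0.10). The thaumatin-like gene AT2G28790 had signals of 423 and 423 in add3 and of 736 and 733 in wild type (log2 difference -0.78, SE 0.11, limma adjusted p = 0.0144). Limma gave 5 of the 11 an unadjusted p under 0.05, and those other than AT2G28790 were higher in add3. BIK1, a cytoplasmic kinase that relays signals from pattern receptors, was the tested gene of the chitin perception list. It had 150 and 159 in add3 and 238 and 244 in wild type (log2 difference -0.60, SE 0.12, limma adjusted p = 0.0362), and the size held at -0.64 to -0.56 when 1 array was left out. With fewer arrays in the fit the call was lost in each case (limma adjusted p from 0.0689 to 0.149).

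The hormone-linked lists could barely be read. Of 19 salicylate-linked loci 2 were tested, and limma called neither, nor did either have an unadjusted p under 0.05. GRX480, a glutaredoxin gene, had signals of 28.8 and 94.1 in add3 and of 47.0 and 23.9 in wild type, so the groups overlapped (log2 difference 0.51, adjusted p = 0.501). Its estimate rests on single arrays: it was 0.16 without wild-type replicate 2 (limma adjusted p = 0.873) and 1.20 without add3 replicate 1, where 1 add3 sample was left (limma adjusted p = 0.0439). For SAG101, a lipase-like gene of immune signalling, the difference was -0.20 (adjusted p = 0.492). Of 11 jasmonate- and ethylene-linked loci 4 had a probe set and none passed the filter. The thionin gene THI2.1, named after its values were seen, had signals of 12.3 and 5.17 in add3, not above background, and of 44.5 and 56.9 in wild type, which puts wild type at least 2.05-fold higher.

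Genes whose levels over the 4 arrays were most like those of AT2G43620 and AT5G55450 were sought among 7333 other tested single-gene probe sets. The measure was the root-mean-square distance between log2 values centred on each gene's mean. For AT2G43620 the nearest were AT1G06000 (distance 0.10), a flavonol rhamnosyltransferase gene, UGT76C2 (0.12), a cytokinin glucosyltransferase gene, and AT4G12490 (0.13), a hybrid proline-rich protein gene of the list above. For AT5G55450 they were UGT76C2 (0.11), AT4G16146 (0.13) and AT1G06000 (0.13). UGT76C2 had signals of 109 and 128 in add3 and of 43.8 and 41.0 in wild type, and AT4G12490 had 166 and 309 in add3 and 103 and 104 in wild type. AT4G12490 thus shared the high add3 replicate 2 of AT2G43620, and its log2 difference of 1.05 was 0.62 without add3 replicate 2 and 1.47 without add3 replicate 1. No p is given for these genes, which were picked for their likeness to members that differ between the groups. With 4 arrays in 2 groups, many genes that differ between the groups come near by this measure.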

How the data were processed

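The authors deposited linear MAS5 signal intensities, 1 for each probe set of each array (MAS5 named in the submitters' processing notes). Its version is not given in the sources used here, and no detection calls were used. Each array had a trimmed mean of 100.0 and was used as scaled. Of 22810 probe sets 64 controls were left out, and the brightest of 27 bacterial controls set each array's background. The platform annotation gave a single gene to 13513 probe sets, several genes to 503 and no gene to 8730. Of the first, 13436 matched a locus of the TAIR10.1 gene table. Signals became log2(signal + 12.5), with 0.25 of the median signal as pseudocount. Probe sets whose mean reached the 40th percentile (33.2) were tested with limma 3.58.1 in R 4.3.3 (eBayes with trend, two-sided, 2 residual degrees of freedom, Benjamini-Hochberg over 13648 probe sets, threshold 0.05). The fit was tested on simulated data. Members, which get no test, and lists were chosen with earlier results of these data known.

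The text names every member, up to 4 called genes per list by size or else the 2 with the smallest p, called neighbours, and the 3 nearest profiles of AT2G43620 and AT5G55450. Where a locus outside the members had several probe sets the brightest was used. Neighbours were counted over protein-coding genes and pseudogenes. Alternatives were other pseudocounts, filters, scalings, a fit without a trend, a replicate block and leaving out each array. No sequences are printed, since none were in the tables used here.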

Additional observations from a re-analysis of the deposited data

How the results depend on the processing

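AT2G43620, AT5G55450, AT2G43590 and AT2G43610 kept their direction with both other scalings. Other pseudocounts, the blocks and leaving out an array cannot turn the sign of groups that do not overlap. Over all alternatives log2 differences ranged from 0.90 to 1.43 for AT2G43620, from 0.86 to 1.50 for AT5G55450, from -1.53 to -0.59 for AT2G43590 and from -0.63 to -0.21 for AT2G43610. The extremes of AT5G55450 (0.86) and AT2G43590 (-0.59, and -1.53) came from the other pseudocounts. CHI changed sign (-0.36 to 0.34). Members with groups apart numbered 2 higher (2 to 3 without 1 array) and 2 lower (2 to 3), but 1 lower with median scaling or quantile normalization, where the median of all tested probe sets was 0.04 and -0.01.

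Over all tested probe sets 569 rose and 428 fell, or 937 and 319 after scaling the arrays to 1 median. With no filter limma called 5 and 8 (1844 and 2299 at an unadjusted p under 0.05). Without a trend it called 308 and 247, and leaving out 1 array gave 258 to 505 and 186 to 308. Of the list genes 3 rose and 2 fell. Without a filter 0 and 0 were called (limma, 9 and 8 at an unadjusted p under 0.05), and the adjusted p-values of AT5G48490, AT2G10940 and AT2G28790 were then 0.0587, 0.0615 and 0.0511. AT2G43530 (0.0622), AT1G02360 (0.105) and BIK1 (0.0716) also lost their calls there. Their log2 differences were as before, since a filter does not enter them. It does change limma's moderated variances, besides the probe sets that are tested. With median scaling 6 rose. Falls numbered 1 without a trend, and rises 2 to 4 and falls 1 to 2 without 1 array, with 1 fall without wild-type replicate 2. PYK10 passed with median scaling (0.0413) and AT1G62790 with the filter at the 60th percentile (0.0422). With the replicate number as a block 501 and 377 probe sets and 4 and 1 list genes were called, with BIK1 at an adjusted p of 0.0503. The numbers share no stated origin, and the deviations of same-numbered arrays from their group means were weakly related (correlation -0.12). A crossed replicate block, chosen after seeing the data, gave 1050 and 859 probe sets and 5 and 5 list genes.

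The 2 arrays per group limit the precision, and signals near background have no usable level. The causes of these changes were not tested.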
